A study of Mus musculus with 2 samples.

Results

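The genes described here are 10 components and targets of the Notch pathway: the ligands Dll1 and Jag1, the receptors Notch1, Notch2 and Notch3, the DNA-binding factor Rbpj, and the transcription factors Hes1, Hes5, Hes6 and Hey1. They were taken by gene name from the authors' deposited tables of N6-methyladenosine (m6A) in day 6 mouse retinal organoids. Of the 10, 4 were listed in replicate 1 and 8 in replicate 2, among 5699 and 8057 named genes. Jag1 and Hey1 were listed in neither library. The 10 genes accounted for 19 of 26441 listed positions in replicate 1 and 62 of 50099 in replicate 2.

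Both libraries came from wild-type (WT) organoids of the mouse line Rx:GFP, in which green fluorescent protein reports the eye-field gene Rx (Rax), and they form a single group with n = 2. The cells were differentiated for 6 days in a serum-replacement medium with AGN at 0.1 µM, a treatment that both libraries share, so there was no untreated, mutant or later group to compare with. Poly(A) RNA was read directly through nanopores, 1 library to a flow cell, and the deposited values give for each listed transcript position the number of reads over it (coverage) and the fraction of reads scored as modified. The labels do not say whether the replicates were separate cultures, so the spread between them may be technical.

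Notch signalling works between touching cells. A Delta or Jagged ligand on one cell binds a Notch receptor on its neighbour, the receptor is cut by ADAM proteases and γ-secretase, and its freed intracellular domain enters the nucleus and joins Rbpj to switch on targets such as Hes1, Hes5 and Hey1. In the developing retina Hes1 and Hes5 are repressors that hold progenitors back from becoming neurons, while Hes6 is known to counter Hes1. The mRNA of Hes1 is short-lived, and m6A, the most common internal mark of mRNA, is known to affect how long an mRNA lasts.

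The tables list 4 motifs of 5 bases, in each of which an adenosine before a cytosine is the candidate for methylation. If only positions accepted as modified were listed, which no source used here says or denies, the fractions, zeros and medians below would describe accepted positions alone. A site here is a listed position with at least 20 reads, and a shared site is the same position of the same transcript with at least 20 reads in both libraries. The only shared sites of the 10 genes lay on Hes1. Their motifs are shown because GGACA, the most highly modified motif across all genes, was low here. Written in DNA letters from 5′ to 3′, with capitals for the whole motif, they are:

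Hes1 position 771: GGACC

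Hes1 position 1018: GGACC

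Hes1 position 1073: GGACT

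Hes1 position 1158: GGACA

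Hes1 position 1189: AGACT

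Longer sequence around these positions was not used here. Whether a position lies in coding sequence or in an untranslated region was not analysed.

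As for the libraries as a whole, median coverage was 10 reads in replicate 1 and 12 in replicate 2, and no position under 5 reads was listed. Of 7 retinal progenitor markers, 6 were listed in each library, with a highest coverage from 7 (Pax6) to 111 reads (Lhx2) in replicate 1 and from 17 (Pax6) to 261 reads (Lhx2) in replicate 2. Of 4 neuronal markers only Tubb3 was listed, at up to 11 and 17 reads. Of 3 pigment epithelium markers, 1 was listed in replicate 1 and 2 in replicate 2, at no more than 14 reads, and neither the 2 pluripotency, the 2 mesoderm nor the 2 endoderm markers were listed. A gene is listed only if one of the 4 motifs was reported in it, so a gene that is missing from the tables is not shown to be absent from the cells.

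Hes1 was the one deeply covered gene of the group. Its 5 positions, all on transcript ENSMUST00000023171.7 (gene on chromosome 16, 29883202 to 29886614), were listed in both libraries, and no further Hes1 position was listed in either. Coverage ran from 132 to 153 reads in replicate 1 and from 245 to 271 reads in replicate 2. The highest value stood at percentile 95.7 of the listed genes of replicate 1 and at percentile 96.8 of those of replicate 2. Replicate 2 was 1.76 to 1.86 times as deep as replicate 1 at these sites, against a median of 2 times over all 5221 shared sites. In bulk RNA, fewer cells of a type and less RNA per cell cannot be told apart, and coverage was not read here as a level of expression. Nor is it the exact number of reads behind a fraction. Many fractions are not whole multiples of 1 over the coverage, so for these the denominator was not the coverage. Among them were all 5 Hes1 fractions of replicate 1 and the 0.5 of Notch3 position 7633 at 5 reads. Fewer reads than those printed may have been scored, and a fraction may be less precise than its coverage would give. Reads printed beside a fraction are its coverage.

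The modified fraction differed widely from site to site along this transcript. At position 1073 it was 0.807 in replicate 1 (147 reads) and 0.717 in replicate 2 (265 reads), with a mean of 0.762 ± 0.0634 (SD, n = 2). This was the highest Hes1 value in each library. At position 771 the fraction was 0.426 over 132 reads and 0.453 over 245 reads (0.440 ± 0.0190, SD, n = 2). At position 1018, 55 nt before the highest site, it was 0.321 in replicate 1 (141 reads) and 0.322 in replicate 2 (260 reads), a mean of 0.321 ± 0.00113 (SD, n = 2). These 3 sites kept the same order in both libraries, with no overlap between the values of one site and those of the next.

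The last 2 sites were low. Position 1158 had a fraction of 0.152 in replicate 1 (153 reads) and 0.0829 in replicate 2 (271 reads), a mean of 0.117 ± 0.0485 (SD, n = 2). At position 1189 it was 0.118 over 153 reads and 0.110 over 270 reads (0.114 ± 0.00580, SD, n = 2). Position 1158 was the higher of the pair by 0.0333 in replicate 1 and the lower by a difference of -0.0271 in replicate 2, so these sites, 31 nt apart, could not be ordered.

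**Figure D1:**
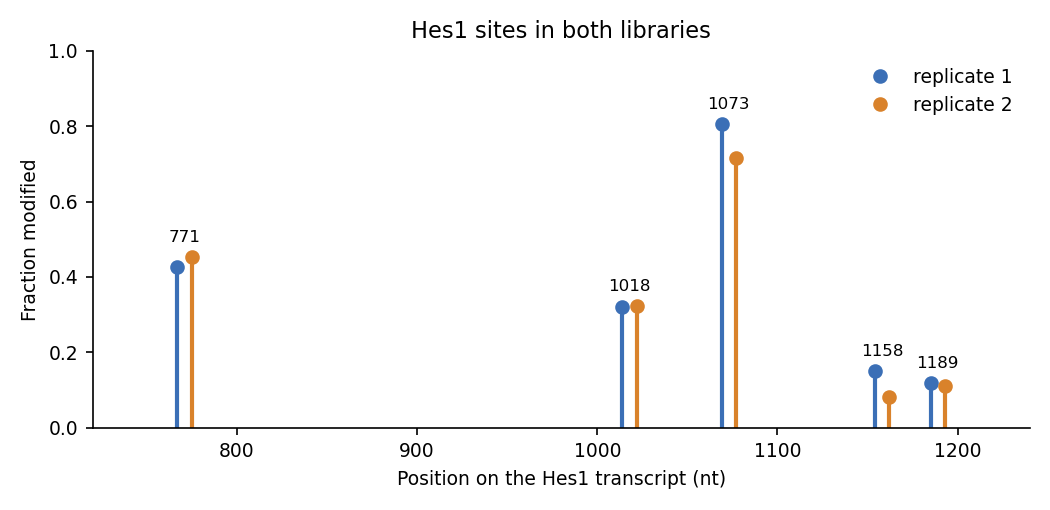
Fraction modified (vertical axis, 0 to 1) at the 5 Hes1 sites against their position on the transcript in nt, with 1 stem per library, drawn 4 nt to either side of the site. Position 1073 stands highest in both libraries, at 0.807 and 0.717, and positions 1158 and 1189 lie at 0.152 or below.

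Differences between sites next to each other in this order were then set against the spread between libraries. Position 1073 exceeded position 771 by 0.380 in replicate 1 and 0.264 in replicate 2 (0.322 ± 0.0824, SD, n = 2). Position 771 exceeded position 1018 by 0.106 and 0.131 (0.118 ± 0.0178, SD, n = 2), and position 1018 exceeded position 1158 by 0.169 and 0.239 (0.204 ± 0.0496, SD, n = 2). Each of these 3 gaps was larger than its own SD and had the same sign in both libraries, though the order was taken from the same values. With 2 libraries a two-sided exact paired permutation test gave p = 0.5 for each, the smallest value it can give.

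A large change over a short distance lay between positions 1073 and 1158, which are 85 nt apart. The fraction fell by 0.655 in replicate 1 and by 0.634 in replicate 2 from the first to the second, and the gap varied by an SD of 0.0149. The whole range of site means on Hes1 was 0.648. Among the 117 transcripts with exactly 5 shared sites the median range was 0.741, and Hes1 stood at percentile 33.3 of them. A spread of this size was thus common at the minimum of 20 reads. Only 14.2% of all shared sites had at least 100 reads in both libraries, as those of Hes1 did. The root mean square difference between libraries was 0.114 at 20 to 49 reads and 0.0491 at 100 or more. Ranges were not compared at equal depth.

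Read against other sites of the same motif, the Hes1 sites did not all sit on the same side. Position 1158 carries GGACA, the motif with the highest level across genes, at a median of 0.688 in replicate 1 and 0.667 in replicate 2 over shared sites. The Hes1 GGACA site, at 0.152 and 0.0829, was at percentile 5.30 of 2001 shared GGACA sites. Conversely position 1073, a GGACT, was at percentile 88.5 of 1242 sites whose median was 0.267 and 0.250. The GGACC sites at positions 771 and 1018 were at percentiles 76.4 and 64.2 of 1162 sites, and the AGACT at position 1189 was at percentile 21.4 of 816.

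GGACA was not the highest motif on Hes1, as it was across genes. The Hes1 GGACA site lay below the median of its other 4 sites in replicate 1 (0.152 against 0.373, a difference of -0.222) and in replicate 2 (0.0829 against 0.388, a difference of -0.305). Over all shared sites GGACA lay above the other motifs, by 0.438 in replicate 1 and 0.427 in replicate 2. The Hes1 difference rests on a single GGACA site and the exact paired permutation test again allowed no less than p = 0.5. Across its 5 sites Hes1 had a median fraction of 0.321 in replicate 1 and 0.322 in replicate 2, beside 0.375 and 0.362 over all shared sites.

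The libraries differed on Hes1 by about as much as on other sites of its depth. The root mean square difference over the 5 sites was 0.0520, and over the 741 positions with at least 100 reads in both libraries it was 0.0491. Positions 771, 1018 and 1189 differed by 0.0268, 0.0016 and 0.0082. Positions 1073 and 1158 differed by more, with replicate 1 the higher at both: the signed differences, replicate 2 minus replicate 1, were -0.0897 and -0.0686. These sizes lay at percentiles 91.6 and 85.4 of the 741 deep positions.

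The other members were shallow or not listed: Hes5, Notch1, Notch2 and Dll1 were listed in replicate 2 alone, and Hes6, Notch3 and Rbpj in both libraries. At least 1 site of 20 reads was found in 1 of the 4 members listed in replicate 1, where 35.6% of all listed genes had one, and in 2 of the 8 members listed in replicate 2, where 48.6% of all listed genes had one. A shared site was found in 1 of the 8 members listed in either library, beside 22.8% of all genes listed in either. With so few members these shares do not set the group apart. All 5 sites of replicate 1 were shared, as were 5 of the 7 sites of replicate 2, the shared ones all on Hes1 and the other 2 on Hes5. Over all genes 80.8% of the sites of replicate 1 and 32.2% of those of replicate 2 were shared, and because the member sites lie on only 2 genes their shares are not set against these.

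**Figure D2:**
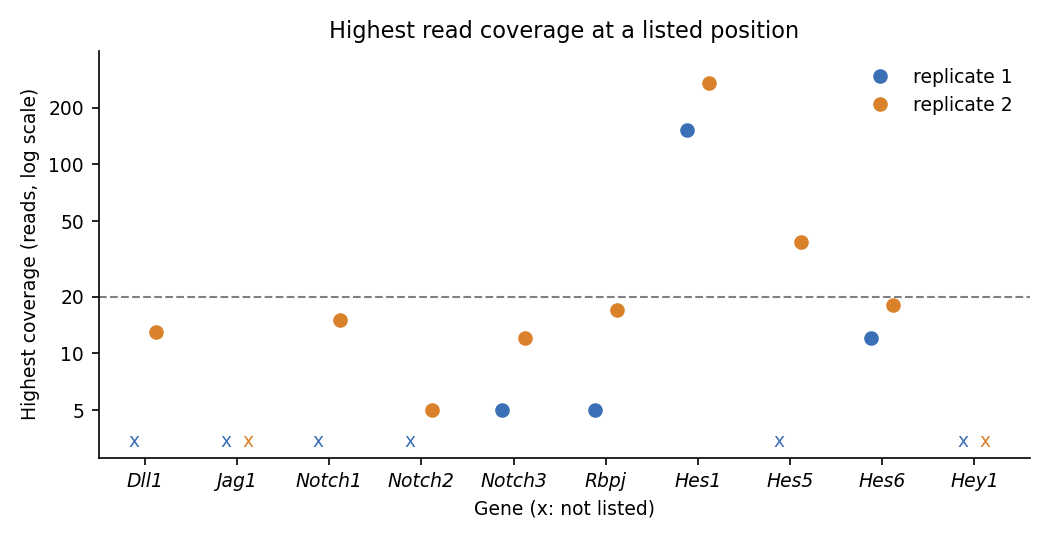
Highest coverage in reads (log axis) at any listed position of each gene in replicate 1 (blue) and replicate 2 (orange), with a cross where the gene was not listed and a dashed line at 20 reads. Hes1 lies far above the line at 153 and 271 reads, Hes5 is above it at 39 reads in replicate 2 only, and Hes6 at 18 reads is the closest of those under it.

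Hes5, the other main Notch effector of neural progenitors (chromosome 4, 155045380 to 155046828; transcript ENSMUST00000049621.6), supplied the remaining 2 sites. Both are GGACT and both were found in replicate 2 only. The fraction was 0.040 over 32 reads at position 334 and 0.182 over 39 reads at position 922. Both lay below the GGACT median of 0.250 for shared sites in that library and below the 0.717 of the Hes1 GGACT site in the same library. Hes5 was not listed in replicate 1, so neither value has a replicate and neither comparison was tested.

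Hes6 (chromosome 1, 91339205 to 91341760) fell just short of the minimum, with a highest coverage of 12 reads in replicate 1 and 18 in replicate 2. On transcript ENSMUST00000086851.1 the AGACT at position 1100 had a fraction of 0.556 in replicate 1 (12 reads) and 0.538 in replicate 2 (18 reads). The GGACA at position 1126 had 0.125 over 12 reads and 0.100 over 18 reads. This GGACA lay below a neighbouring position of another motif, here 26 nt away, in both libraries.

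The third Hes6 position listed in both libraries disagreed. The GGACC at position 778 was listed at 0 in replicate 1 (12 reads) and at 0.385 in replicate 2 (17 reads). The root mean square difference over all positions whose shallower library had 10 to 19 reads was 0.169, so this difference was larger than is usual at this depth. A further GGACC at position 949 was listed only in replicate 1, with a fraction of 0 over 12 reads. A second transcript, ENSMUST00000132188.7, had an AGACT at position 1163 in replicate 2, with 0.5 over 6 reads.

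Rbpj, through which all Notch receptors reach their targets (chromosome 5, 53623494 to 53814704), had the most listed positions of the group but never exceeded 5 reads in replicate 1 or 17 in replicate 2. In replicate 1, 9 positions on 2 transcripts were listed and the fraction was 0 at 7 of them. In replicate 2, 17 positions on 4 transcripts were listed, with a fraction of 0 at 5 and a median of 0.273. On the best covered transcript, ENSMUST00000113865.4, the highest value was 0.583 over 16 reads at the GGACT of position 1719. The next was 0.429 over 15 reads at the AGACT of position 935, and the only GGACA, at position 1321, had 0 over 16 reads. Of 3 motifs spaced 8 nt apart, the AGACT at position 2033 had 0, the GGACC at position 2041 had 0.0909 and the GGACT at position 2049 had 0.273, each over 16 reads.

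For Rbpj, 7 positions were listed in both libraries, some of them repeats of each other on 2 transcripts, and most had a fraction of 0 in replicate 1, from which a value can only rise. The largest difference was 0.286, at position 3423, listed at 0 in replicate 1 (5 reads) and at 0.286 in replicate 2 (17 reads). The root mean square difference over the 7 was 0.171, below the 0.248 seen over all 7808 positions with 5 to 9 reads in the shallower library. At 2 of the 7 both libraries had 0. Given the zeros and the repeats, the lower value was not read as closer agreement than usual.

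**Figure D3:**
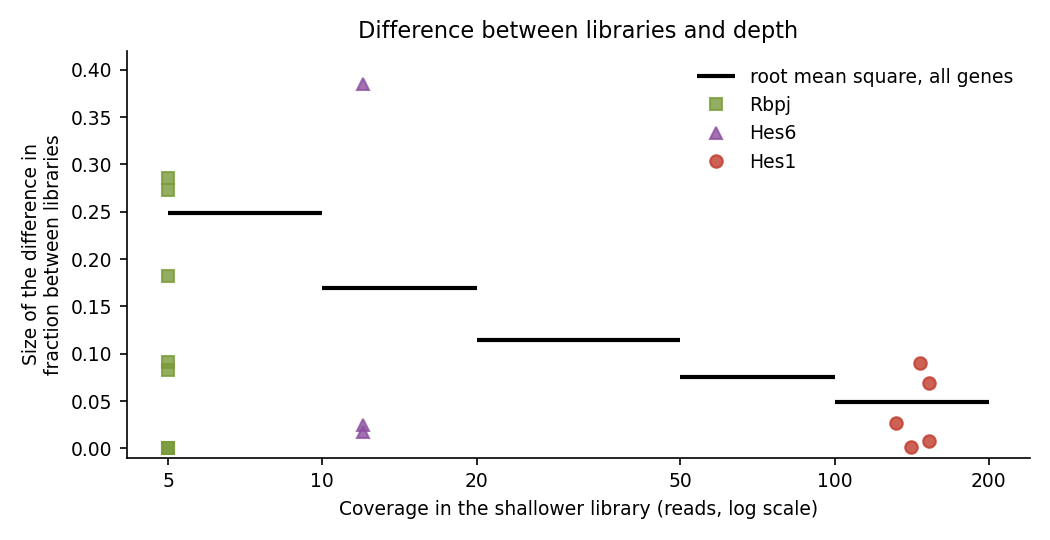
Size of the difference in fraction between the libraries (vertical axis) against coverage in the shallower library (reads, log axis) for every position of Rbpj, Hes6 and Hes1 listed in both, with black bars for the root mean square over all genes in each depth class (the last bar stands for all positions of 100 or more reads). The Hes1 points lie at 0.0897 or less, while Hes6 reaches 0.385 and Rbpj 0.286 at low depth.

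The Rbpj reads were divided between transcripts that repeat the same positions at a constant offset. Positions of ENSMUST00000037618.12 lay 19 nt further along than those of ENSMUST00000113865.4 for 3 positions of the same motif, and positions of ENSMUST00000087360.8 lay 184 nt earlier for 2. With these transcripts joined, coverage in replicate 2 came to 32 reads at position 3194, 25 at position 3423 and 33 at position 3437, above the minimum of 20. In replicate 1 the same positions held 10 reads each. Whether a read could be counted on more than 1 transcript is not stated, so these sums are upper values, and this joining was chosen after the data had been seen.

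The receptors were listed mainly in replicate 2 and at low depth. Notch1 (chromosome 2, 26347915 to 26406675; transcript ENSMUST00000028288.4), the main receptor of neural progenitors, had 10 positions from 6461 to 8817, and its coverage rose from 5 reads at the first to 15 at the last. The deepest were the GGACT at position 8792 with a fraction of 0.286 and the AGACT at position 8817 with 0.556, both over 15 reads. The GGACT motifs at positions 8671 and 8727 had 0.750 over 13 reads and 0.455 over 14 reads. Its 3 GGACA positions had 0 over 5 reads (6498), 0 over 5 reads (6810) and 0.667 over 9 reads (7677), while the GGACT at position 6837 had 1 over 5 reads.

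Notch3 (chromosome 17, 32339794 to 32385826; transcript ENSMUST00000087723.3) had 10 positions in replicate 2, over 5 to 12 reads, and a median fraction of 0.367. The highest was 1 over 5 reads at the GGACA of position 5185, and the deepest was the GGACC at position 7266 with 0.5 over 12 reads. Its GGACT positions 6399 and 6408, 9 nt apart, had 0.400 and 0.167 over 9 reads each. Replicate 1 listed only position 7633, with 0.5 over 5 reads, and replicate 2 did not list that position. Notch2 (chromosome 3, 97920843 to 98057677; transcript ENSMUST00000079812.7) had 3 positions in replicate 2 with 5 reads each. The fraction was 0 at positions 10066 and 10198 and 0.200 at position 10227.

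Dll1, the ligand that progenitors turn on as they begin to differentiate (chromosome 17, 15587616 to 15597134; transcript ENSMUST00000014917.7), had 11 positions in replicate 2 over 7 to 13 reads and none in replicate 1. Its GGACA positions stood above all its others, while the other motifs overlapped. The 3 GGACA positions had fractions of 1 over 9 reads (2059), 1 over 9 reads (2113) and 0.889 over 13 reads (3134). All 4 GGACC positions were at 0.143 or below and the single AGACT, at position 660, was at 0 over 7 reads. The GGACT positions spread from 0 over 10 reads (2656) through 0.455 over 12 reads (3102) to 0.800 over 7 reads (491). On Dll1 the GGACA positions were thus the highest, as they were by median across all genes, while on Hes1 the GGACA site was among the 2 lowest.

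**Figure D4:**
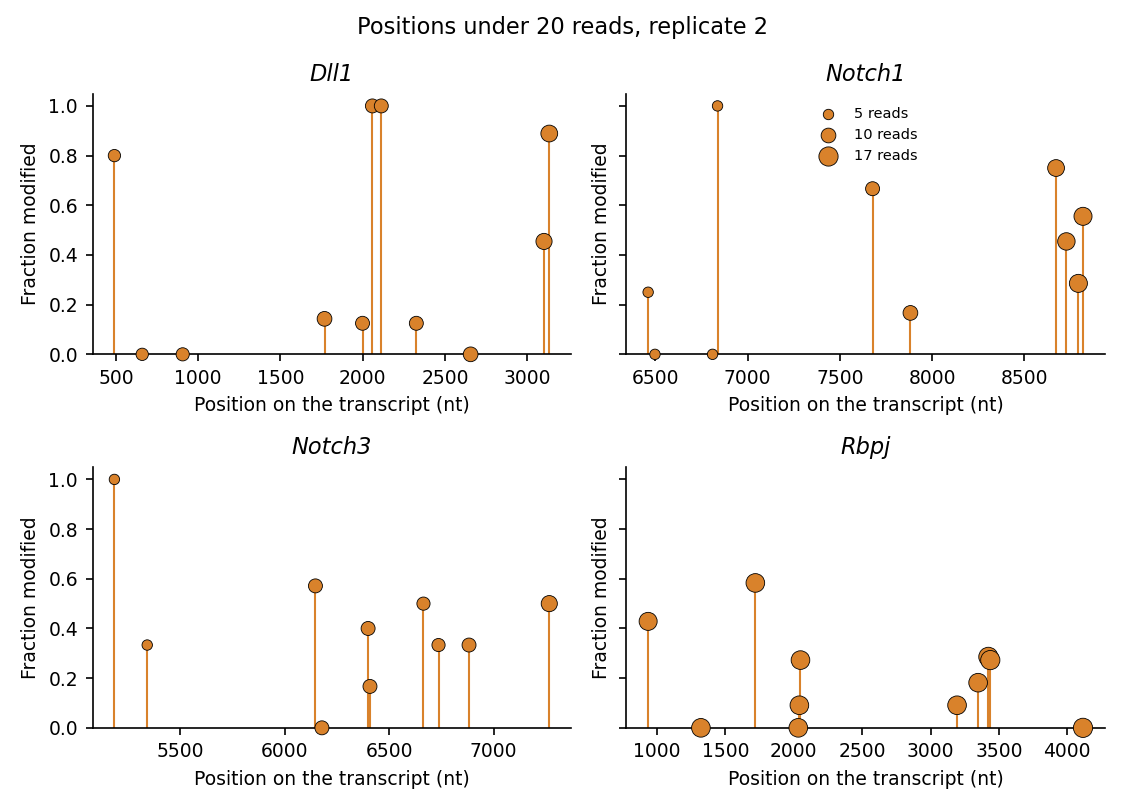
Fraction modified (vertical axis) against transcript position in nt for Dll1, Notch1, Notch3 and the best covered Rbpj transcript in replicate 2, with the area of each point in proportion to its coverage. The points hold 5 to 17 reads each, and Dll1 shows 3 positions at 0.889 or above while no position of Rbpj exceeds 0.583.

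Members under 20 reads were last summarised by motif beside all positions of the same depth in replicate 2. The 55 shallow member positions had a median of 0.286, against 0.333 over 33887 positions, and a fraction of 0 was listed at 13 of them (23.6%, against 20.8%). For GGACA, 3 of 11 member positions were at 0 (27.3%, against 9.02% of 11327 positions), with a median of 0.571 against 0.667. The share at 0 was also higher among members at AGACT (37.5% against 26.9%), and lower at GGACC (13.3% against 23.5%) and at GGACT (15.4% against 29.0%). The median at GGACT was 0.400 over 13 positions against 0.200 over all, that at GGACC 0.273 over 15 against 0.250, and that at AGACT 0.216 over 16 against 0.250. Positions of a gene share their reads and the Rbpj transcripts repeat positions, so these are descriptions without a test.

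Coverage rose toward the 3′ end, where direct RNA reads begin, on Notch1, Notch3 and Dll1, and less so on Rbpj, whose listed span was the longest. In replicate 2 the first listed position held 33.3% of the coverage of the last on Notch1 (2356 nt apart), 41.7% on Notch3 (2081 nt) and 53.8% on Dll1 (2643 nt). On Hes1 it held 86.3% in replicate 1 and 90.7% in replicate 2 over 418 nt, and on Rbpj 88.2% in replicate 2 over 3180 nt. The median over all 5708 transcripts with at least 4 listed positions in that library was 75%. On Notch1, Notch3 and Dll1 the positions nearest the 5′ end therefore had the lowest coverage.

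The rest of the pathway was read from a list of 66 further genes, of which 28 were listed in replicate 1 and 40 in replicate 2. A shared site was found in 7 of the 40 listed in either library, with 29 sites in all, beside 22.8% of all genes listed in either. By role, and out of the genes listed in either library, these were 4 of 12 nuclear corepressors, 1 of 7 nuclear coactivators, 1 of 6 genes of receptor proteolysis and 1 of 6 genes of ligand endocytosis and receptor trafficking. None was found among the further ligands (1 listed), the genes of receptor glycosylation (5 listed) or those of receptor turnover (1 listed). Notch4, the remaining receptor, was listed with at most 8 reads. None of the 5 other Hes and Hey genes was listed.

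Among the corepressors, Ctbp1, which binds short peptide motifs, had 10 shared sites with a mean fraction of 0.502 in replicate 1 and 0.518 in replicate 2 (0.510 ± 0.0108, SD, n = 2). They lie on 2 transcripts that repeat 4 listed positions at an offset of 188 nt, not all of them shared sites. Among the shared sites, position 1608 is repeated as 1796 and position 1921 as 2109. These had means of 0.870, 0.929, 0.852 and 0.814, all above the gene mean, which counts them on both transcripts. Tle5, a short member of the Groucho family, had 4 shared sites, all GGACA, with a mean of 0.475 ± 0.0122 (SD, n = 2). They ran from 0.139 in both libraries at position 706 to 0.923 and 0.931 at position 1120. At position 1749 of Hdac2, a histone deacetylase, another low GGACA site had 0.123 and 0.136 over 70 and 136 reads. Both it and Tle5 position 706 were below the Hes1 GGACA site in replicate 1 and above it in replicate 2.

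The 4 shared sites of Hdac2 had a mean of 0.445 ± 0.00493 (SD, n = 2). Hdac1 had a single shared site, a GGACC at position 1837 with a fraction of 1 over 26 and 48 reads. The pseudogene Hdac1-ps also carried a GGACC with a fraction of 1, over 75 and 136 reads, and reads of a gene and its pseudogene may be hard to tell apart, so this value is uncertain. Snw1, which joins the Rbpj activator complex, had 6 shared sites with a mean of 0.558 ± 0.00296 (SD, n = 2), over at most 25 and 51 reads. The SD of such a gene mean is smaller than the spread at single sites where opposite differences cancel. On Snw1 position 1630 had 0.0769 and 0.2973, and position 1666 had 0.5385 and 0.4138. On Ctbp1 position 757 had 0.4167 and 0.2143, and position 1274 had 0.1087 and 0.2584. Aph1a, a subunit of γ-secretase, had 3 shared sites averaging 0.586 ± 0.0219 (SD, n = 2), and its GGACA at position 1285 had 0.941 and 0.946. Dtx4, a Deltex ubiquitin ligase, had 1, an AGACT at position 5335 with 0.615 over 21 reads and 0.591 over 68 reads.

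**Figure D5:**
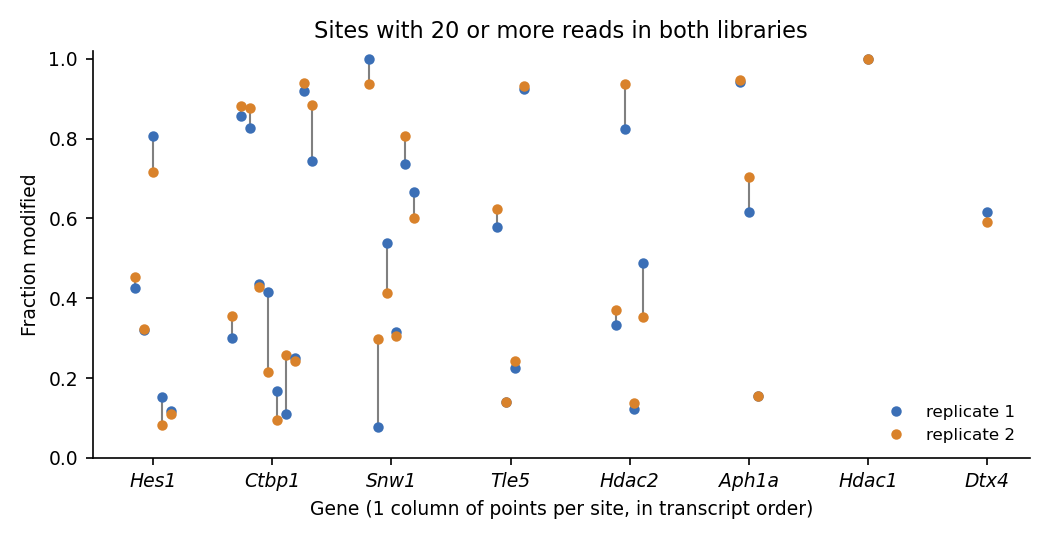
Fraction modified (vertical axis) at every site with at least 20 reads in both libraries, for Hes1 and the 7 other pathway genes that have one, with a line joining the values of replicate 1 (blue) and replicate 2 (orange) of each site. On Ctbp1, Snw1, Tle5, Hdac2 and Aph1a the sites of a gene reach from 0.154 or below to 0.931 or above in at least 1 library, while the highest Hes1 site has 0.807 and 0.717.

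Several pathway genes cleared the minimum in replicate 2 only. Among them was Adam10, the protease that makes the ligand-induced cut of the receptor, with 7 sites and up to 50 reads. Nrarp, a Notch target that limits the signal, had 6 sites and up to 26 reads, and Mib1, the ligase that drives ligand endocytosis, had 2 sites and up to 37 reads. These genes were chosen for mention after their values were seen. In replicate 1 their coverage did not exceed 16, 13 and 15 reads.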

How the data were processed

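Direct RNA libraries were made with the SQK-RNA002 kit, per the labels' protocols. Coverage was deposited by the authors as a read count per position, and the deposited fraction modified lies between 0 and 1. Its denominator is not given: 9 of 19 member values in replicate 1 and 26 of 62 in replicate 2 were whole multiples of 1 over the coverage (within 0.0001), so no read counts were derived and no count test was run. A fraction of 0 or 1 is such a multiple at any coverage. In replicate 1 all 9 were zeros, 2 on Hes6 and 7 on Rbpj. In replicate 2, 13 of the 26 were zeros and some others were 1. The submitters' processing notes list mm10, but 0 of the 8 listed members had a deposited gene start within 1000 bases of RefSeq GRCm38.p6, so coordinates are printed as deposited, with their build unstated. The base caller, aligner and modification caller, and whether the tables hold every position examined, are not given in the sources used here. Tables were joined on transcript and position end with Python 3.11.15, pandas 2.3.3, NumPy 2.4.6 and SciPy 1.17.1, and the join was checked on simulated data. The 10 genes and the 66 further pathway genes were chosen with earlier results of these data known. Every member was described, and of the further genes those with a shared site. Adam10, Nrarp and Mib1, which have none, were added after their values were seen, and Notch4, also without one, was given as the remaining receptor. The tables named minus held 0 rows of the 10 genes. Alternatives were other coverage minimums, 1 transcript per gene, matching within 5 nt, weighting by coverage, and leaving out a replicate. Some items are not reported here.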

Additional observations from a re-analysis of the deposited data

How the results depend on the processing

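Without a minimum beyond the deposited tables, the 10 genes had 19 positions in replicate 1, 62 in replicate 2 and 15 in both, 3 members had a shared position, and so did 25 of the 66 further pathway genes. With a minimum of 10 reads these numbers were 9, 31, 8, 2 and 14, and the median fraction over shared sites was 0.295 in place of 0.321, since 3 Hes6 positions enter. With 50 reads 3 further pathway genes kept a shared site in place of 7, and Hes1 kept its 5. Joining the Rbpj transcripts, chosen after seeing the data, gave 10 sites in place of 7 in replicate 2. The difference between Hes1 positions 1158 and 1189 ran from -0.0271 without replicate 1 to 0.0333 without replicate 2, and so changed sign. The other 3 differences between neighbouring Hes1 sites kept theirs. Other minimums and 1 transcript per gene left the Hes1 values as they were. No paired analysis was possible because the samples form 1 group, with no second group to pair replicates with; the exact paired tests of the report pair sites within a library. Of the 10 genes only Hes1 had 20 or more reads at a listed position in both libraries.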

Other observations

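Some positions were listed in the shallower library only. Of the 19 member positions of replicate 1, 4 were not listed in replicate 2: Hes6 position 949, Notch3 position 7633 and Rbpj positions 2973 and 4037 of transcript ENSMUST00000037618.12. Hes6 position 949 lay between positions of the same transcript that replicate 2 listed with 17 and 18 reads. Over all genes, 25.4% of the 14875 positions of replicate 1 that lay between listed positions of the same transcript in replicate 2 were not listed there, and 24.8% of 13607 in the other direction. The same was true of 1 of 10 member positions in the first direction and 0 of 9 in the second. The coverage of positions that are not listed is unknown here, so a position that is missing in 1 library was not read as unmodified or uncovered.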
